A study of Mus musculus with 2 samples.

Results

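The miR-26 family of the mouse is made from 3 hairpin genes, Mir26a-1, Mir26a-2 and Mir26b, and was taken by symbol from the 2202 miRNA genes counted in each library. Small RNA was sequenced from adrenal glands, taken at 14 days of age from males of B6CASTF1/J, an F1 hybrid mouse, with no treatment named. The labels give 1 group of 2 libraries, biological replicates 2 and 1, each from its own biosample. The label of each biosample names 3 males, and 1 donor record stands for both. No contrast between conditions exists, so the level of each gene and its difference between the libraries were described and no test of levels was made. Nothing in the labels says how many animals each library holds, and the spread between the libraries may be in part technical.

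MicroRNAs are cut from hairpin precursors, and one arm of the hairpin then guides silencing proteins to messenger RNAs through its seed, the bases near its 5′ end. All members of the miR-26 family lie in introns of genes for small phosphatases of the Ctdsp group, which act on the tail of RNA polymerase II and, with the factor REST, keep neuronal genes silent in non-neuronal cells. Both the family and its host genes are known as brakes on the cell cycle, and the Polycomb enzyme Ezh2 is a well-known target of miR-26.

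The hairpins lie on the plus strand of mm10. Mir26a-1 was at chr9:119031796-119031885, in an intron of Ctdspl that is the fifth of 7 in the principal transcript and 3283 bases long. Mir26a-2 was at chr10:126995530-126995613, in the fifth of 7 introns of Ctdsp2, 1946 bases long. Mir26b was at chr1:74394310-74394394, in the fourth of 6 introns of Ctdsp1, 564 bases long, with 234 bases before it and 245 after it. In every transcript of the host that spans a hairpin, 3 for Mir26a-1, 1 for Mir26a-2 and 2 for Mir26b, it was intronic and on the strand of the host.

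The mature arms are shown because their identity decides which gene a read can be given to. They come from RefSeq on GRCm38.p6 and run 5′ to 3′, with the seed, bases 2 to 8, in capitals.
miR-26a-5p, from Mir26a-1 and Mir26a-2: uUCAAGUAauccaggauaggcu
miR-26b-5p, from Mir26b: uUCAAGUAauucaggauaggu
miR-26a-1-3p: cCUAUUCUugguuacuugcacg
miR-26a-2-3p: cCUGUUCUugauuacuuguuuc
miR-26b-3p: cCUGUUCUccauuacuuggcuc

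All 5p arms of the family carry the seed UCAAGUA, and among 1679 mature names in the RefSeq table miR-26a-5p and miR-26b-5p were the only 2 with it. Counted from 1 at the 5′ end, miR-26b-5p differed from miR-26a-5p by C11U and C21U over the 21 positions compared, outside the seed. The 3p arms were less alike: miR-26a-1-3p and miR-26a-2-3p differed at 6 of 22 positions, of which A4G lies in the seed. The seeds of miR-26a-2-3p and miR-26b-3p were the same, although those arms differed at 4 positions.

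In the whole hairpins below, the mature arms are in capitals, and the RefSeq hairpins equalled those of GENCODE M21.
Mir26a-1: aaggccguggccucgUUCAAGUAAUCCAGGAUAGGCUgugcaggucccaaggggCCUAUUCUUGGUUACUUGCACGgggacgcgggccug
Mir26a-2: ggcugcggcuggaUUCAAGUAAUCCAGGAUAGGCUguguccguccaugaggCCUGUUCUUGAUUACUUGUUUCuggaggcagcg
Mir26b: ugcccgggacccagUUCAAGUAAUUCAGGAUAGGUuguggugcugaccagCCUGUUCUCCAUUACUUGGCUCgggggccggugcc

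Mir26a-1 and Mir26a-2 had an identical run of 25 bases, positions 16 to 40 of Mir26a-1 and 14 to 38 of Mir26a-2. It begins with the first base of miR-26a-5p and covers all 22 bases of that arm, whereas 0 of the 22 bases of either 3p arm lay in a 20-base stretch held by another miRNA gene. Mir26b had 0 such bases, and its longest run in common was 11 bases with Mir26a-1 and 10 with Mir26a-2. A read that lies within the run of 25 bases matches both Mir26a genes, while a read of either arm of Mir26b matches no other miRNA hairpin. Among all 2202 hairpins, 1084 (49.2%) had a 20-base stretch in common with another miRNA gene. In a search of 141767 GENCODE transcripts on both strands, miR-26a-5p was found in the 2 Mir26a hairpins and each of the other 4 arms in its own hairpin alone.

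**Figure D1:**
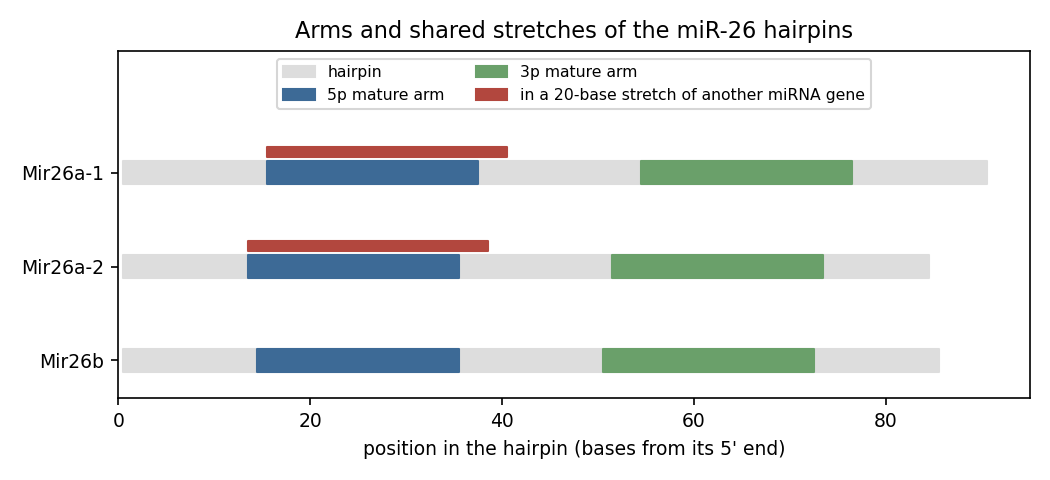
Each row is 1 hairpin, with the position in bases from its 5′ end on the x axis; blue and green mark the 5p and 3p arms and red the bases that lie in a 20-base stretch of another miRNA gene. The red bar covers 25 bases over the 5p arm in Mir26a-1 and Mir26a-2, and Mir26b has none.

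Mir26b held nearly all reads assigned to the family. Levels are given as CPM, the sense reads of a gene scaled to a total of 1000000 sense reads over all miRNA genes of the library, and since a read is a whole mature miRNA no scaling by length applies. The library totals were 3464837 sense miRNA reads in replicate 2 and 3024662 in replicate 1. Intervals are exact at 95% and cover counting error only, not the spread between libraries. They take each read as independent, which PCR copies are not, so they may be too narrow. Reads that mapped to several places were given to no gene and made up 29.4% of reads in replicate 2 and 27.5% in replicate 1.

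Mir26b had 137857 reads in replicate 2, a level of 39787 CPM (39582 to 39994). In replicate 1 it had 49899 reads and 16497 CPM (16354 to 16642). Replicate 2 was thus the higher library by far more than counting error, and the mean was 28142 ± 16469 CPM (SD, n = 2).

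The Mir26a genes, each able to make miR-26a-5p, had far fewer placed reads than Mir26b. Mir26a-2 had 113 reads in replicate 2 and 58 in replicate 1, at 32.6 CPM (26.9 to 39.2) and 19.2 CPM (14.6 to 24.8). Its mean was 25.9 ± 9.50 CPM (SD, n = 2), and again replicate 2 was higher. Mir26a-1 had 71 reads in replicate 2 and 12 in replicate 1, at 20.5 CPM (16 to 25.8) and 3.97 CPM (2.05 to 6.93). Its mean was 12.2 ± 11.7 CPM (SD, n = 2), the widest relative spread of the 3 genes, and the counting intervals of its libraries did not overlap. All 3 genes had 0 reads on the opposite strand in both libraries.

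**Figure D2:**
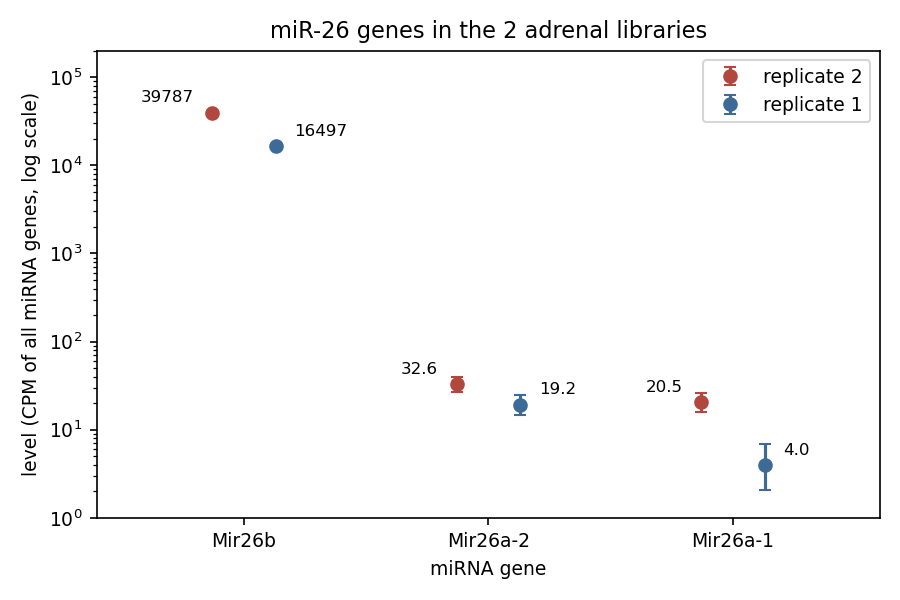
The y axis gives the level in CPM on a log scale for each gene, in replicate 2 (red, left) and replicate 1 (blue, right), with exact 95% counting intervals that are narrower than the points for Mir26b. Mir26b lies at 39787 and 16497 CPM, and the Mir26a genes lie between 3.97 and 32.6 CPM.

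Of all reads given to the family, Mir26b took 99.87% in replicate 2 and 99.86% in replicate 1. For each read of both Mir26a genes together there were 749 reads of Mir26b in replicate 2 and 713 in replicate 1. Relative to Mir26b, the summed Mir26a reads had a ratio of replicate 2 over replicate 1 of 0.951 (0.719 to 1.27), so a difference in that summed balance was not detectable at this depth. Taken singly, each gene's ratio differed from that of Mir26b by more than counting error, in opposite directions: it was 2.14 times that of Mir26b for Mir26a-1 (1.15 to 4.34) and 0.705 times for Mir26a-2 (0.509 to 0.985).

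The balance between the Mir26a copies did differ by more than counting error. Mir26a-2 made up 61.4% of their reads in replicate 2 (54.0 to 68.5, exact) and 82.9% in replicate 1 (72.0 to 90.8). The ratio of replicate 2 over replicate 1 was 3.04-fold larger for Mir26a-1 than for Mir26a-2 (1.48 to 6.63, exact conditional interval). These values rest on 12 reads of Mir26a-1 in replicate 1. They also cover only the reads that could be placed. An exact read of miR-26a-5p matches both copies and so is not among them. Which other parts of the hairpins the placed reads came from was not analysed here.

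The multimapping reads outnumbered the reads of both Mir26a genes 13571-fold in replicate 2 and 28172-fold in replicate 1. How many of them are miR-26a-5p is not given by the counts, so the low level of the Mir26a genes is a level of placed reads and the order of Mir26b above them is not shown for the mature miRNAs. Other genes that encode 1 mature arm at several loci are therefore given beside them.

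Of the 2202 genes, 958 matched a mature arm in the RefSeq table. Among these, 89 had an arm identical to that of another measured gene, with a median of 4.34 CPM, and the median of the other 869 was 0.31 CPM. A level of 100 CPM was reached by 16 of the 89 (18%) and by 145 of the 869 (16.7%). With 43.5% of all genes matched, a check of this property over all genes is void, and nothing is read from these values. The highest summed pairs were Mirlet7f-2 at 3528 ± 504 with Mirlet7f-1 at 149 ± 41.9 CPM, both of the let-7 family of developmental timing, and Mir16-1 at 2833 ± 445 with Mir16-2 at 573 ± 12.8 CPM, of the cell cycle family miR-15/16. Next came Mir92-1 at 1146 ± 175 with Mir92-2 at 42.4 ± 9.29 CPM, whose arm belongs to a cluster family that drives growth, and the let-7 genes Mirlet7c-2 at 695 ± 122 with Mirlet7c-1 at 419 ± 80.3 CPM (SD, n = 2 each). Genes with an identical arm had levels from below 1 CPM to 3528 CPM. The Mir26a pair summed to 38.1 CPM, 18th of 23 pairs that reached 10 CPM together with reads in both genes. The higher copy exceeded the lower 2.12-fold in the Mir26a pair, and 17 of the 23 pairs had a larger ratio.

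**Figure D3:**
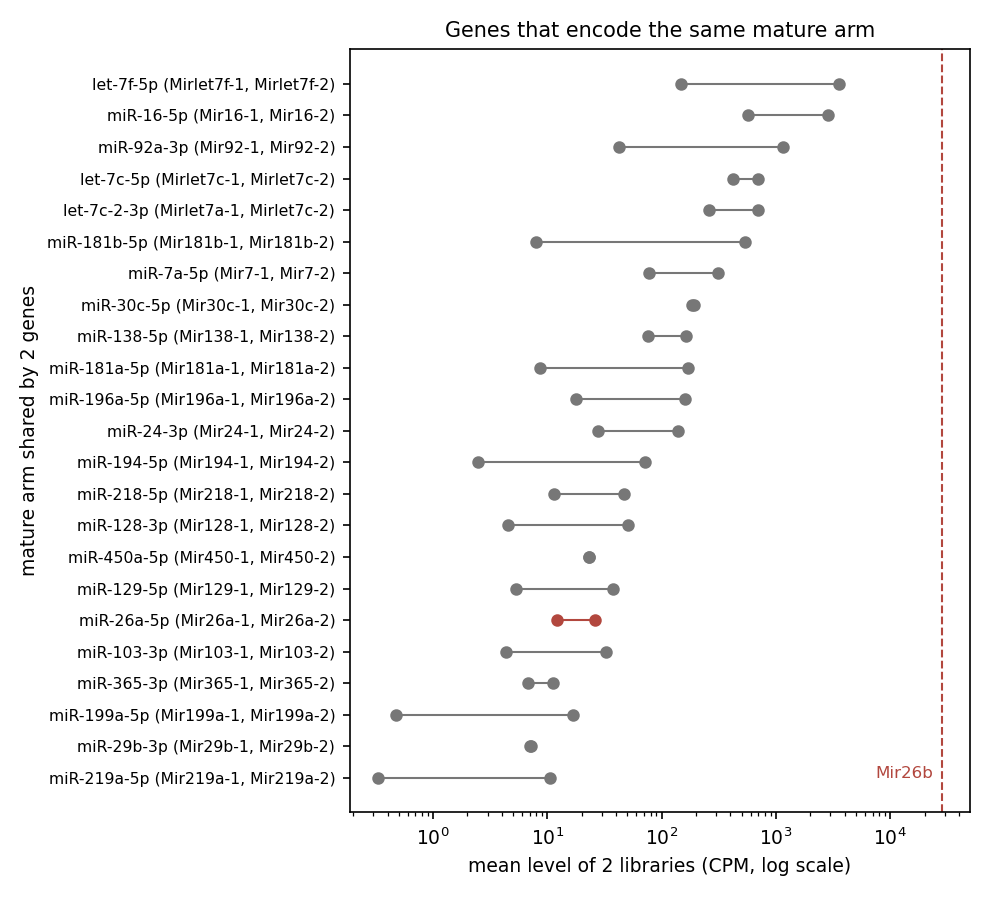
Each row is 1 mature arm encoded by 2 genes, and the points give the mean level of each gene in CPM on a log scale (n = 2 libraries). The Mir26a pair (red) lies at 12.2 and 25.9 CPM, and all 23 pairs lie below the dashed line that marks Mir26b at 28142 CPM.

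In the order of levels of placed reads Mir26b was 8th of 2202 genes in replicate 2 and 17th in replicate 1. In replicate 2 it stood between Mirlet7b at 43514 CPM and Mir10a of the Hox clusters at 38542 CPM. Its neighbours in replicate 1 were Mir99a at 17058 CPM and the imprinted Mir127 at 15477 CPM. Each gap exceeded the counting interval of Mir26b. By the mean of the libraries it was 10th, between the red cell miRNA Mir451a at 29477 ± 17467 CPM and Mir375 at 28104 ± 2105 CPM (SD, n = 2), and neither differed from it by more than its SD. The means of 11 other genes lay between the 2 library levels of Mir26b. Mir26a-2 was 244th in replicate 2 and 266th in replicate 1, and Mir26a-1 was 262nd and 343rd.

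All 3 members were higher in replicate 2. The ratio of replicate 2 over replicate 1 was 2.41 for Mir26b (2.39 to 2.44), 1.70 for Mir26a-2 (1.23 to 2.38) and 5.17 for Mir26a-1 (2.78 to 10.5), and as log2 values 1.27, 0.77 and 2.37. These ratios compare 2 libraries of 1 group and have no replicate check. Of the 189 genes with a mean of 100 CPM or more, 28 (14.8%) had a ratio of 2-fold or more in either direction, 15 of them (7.94%) higher in replicate 2, as Mir26b was, and 13 (6.88%) lower. With a minimum of 10 CPM, which the Mir26a genes pass, 26 of 299 genes (8.7%) were 2-fold or more higher, among them Mir26b and Mir26a-1 but not Mir26a-2. Mir26a-1 passes this minimum only through replicate 2, at 20.5 CPM against 3.97 CPM in replicate 1, so its place among the higher genes is in part fixed by the filter. In the same set 21 genes (7.02%) were lower by 2-fold or more, and 47 (15.7%) in either direction. The spread of the log2 ratio over the 189 genes was 0.79 (SD) around a median of 0.0006, and 10 genes, Mir26b included, had a ratio as high as that of Mir26b or higher.

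**Figure D4:**
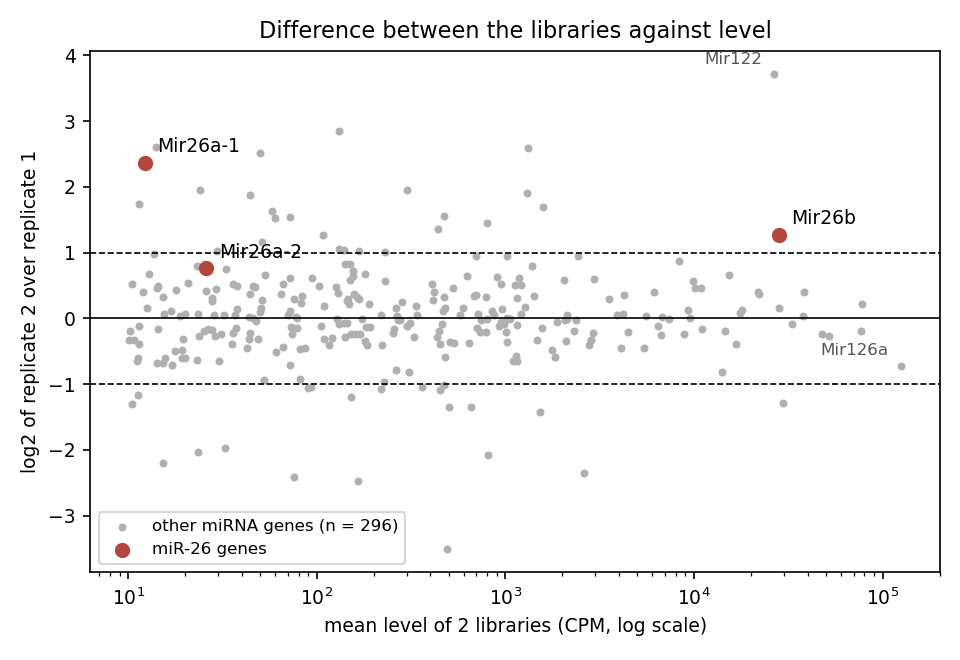
The x axis gives the mean level in CPM on a log scale and the y axis the log2 ratio of replicate 2 over replicate 1, for the 3 miR-26 genes (red) and 296 other genes of 10 CPM or more (grey); dashed lines mark 2-fold. Mir26b at 1.27 and Mir26a-1 at 2.37 lie above the upper line and Mir26a-2 at 0.77 below it.

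Mir26b was 5th of 81 genes of 1000 CPM or more by this ratio, after the hepatocyte miRNA Mir122, Mir301, Mir148a and Mir195a. The 5 genes of that level with the nearest ratio were Mir125a, of the lin-4 family, Mir203 of skin epithelium, Mir130a, Mir195a, of the miR-15/16 seed family, and Mir182 of the sensory organ cluster. Over the 2 libraries their log2 ratios were 0.95, 0.95, 0.88, 1.69 and 0.80, and the nearest, Mir125a, differed by -0.32 from the 1.27 of Mir26b. With 2 libraries such likeness is 1 difference per gene and no pattern.

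Markers of several cell types also differed between the libraries. Mir122, the hepatocyte marker, was at 49475 CPM in replicate 2 and 3786 CPM in replicate 1. The 9 markers of gut and kidney epithelium summed to 568 CPM in replicate 2 and 200 CPM in replicate 1, and 5 of the 6 with a mean of 10 CPM or more were 2-fold or more higher in replicate 2, against 8.7% of all genes at that minimum. Mir200c, the sixth, was at 36.1 CPM in replicate 2 and 69.1 CPM in replicate 1, and Mir215, below that minimum, at 3.75 and 12.6 CPM. Mir200a passes the minimum only through replicate 2, at 24.2 CPM against 3.97 CPM in replicate 1. Its place among the 5 is in part fixed by the filter. Mir429, Mir200a and Mir200b lie side by side on the minus strand, at chr4:156053905-156055750. The 5 are therefore not independent genes, and the share of all genes is no measure of how unusual they are. Summed blood markers were lower in replicate 2. The 3 red cell miRNAs summed to 19202 CPM in replicate 2 and 43959 CPM in replicate 1, of which Mir451a made up 17126 and 41829 CPM, while Mir144 was at 2053 and 2093 CPM. The 4 white cell miRNAs summed to 1710 CPM in replicate 2 and 3466 CPM in replicate 1, although Mir223 was higher, at 89.5 and 31.1 CPM. The endothelial Mir126a was at 94732 CPM in replicate 2 and 155646 CPM in replicate 1.

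Other marker groups were closer between the libraries. Mir375 and the 3 miR-7 genes of neuroendocrine cells, which in the adrenal gland include those of the medulla, summed to 34282 CPM in replicate 2 and 31136 CPM in replicate 1. Mesenchymal markers summed to 45497 and 53093 CPM. Striated muscle markers summed to 9.52 and 6.28 CPM, with Mir1a-1, Mir133a-1 and Mir133a-2 at 0 in both libraries. All marker levels here and above are of placed reads, and reads that mapped to several places are left out. Mir7-1 and Mir7-2 share the arm miR-7a-5p, for example, and Mir199a-1 and Mir199a-2 share miR-199a-5p. A level of 0 thus does not show that a mature miRNA is absent. No marker of the steroid-making cortex was among those used. The part of any of these cell types in the ratio of Mir26b was not tested, and in bulk tissue more cells of a type and more RNA per cell cannot be told apart. With Mir122 and Mir126a left out of the library totals, a choice made after the data were seen, the log2 ratio of Mir26b was 1.24.

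MicroRNAs other than miR-26 that are known to restrain the step from G1 to S phase, or Ezh2, did not move as 1 group. Of 15 measured genes, 10 reached 100 CPM, with 3 of these 2-fold or more higher and 2 lower in replicate 2, where 7.94% and 6.88% of all 189 genes at that level were. The median log2 ratio of the 10 was -0.16, beside 0.0006 over the 189. The higher genes were the Ezh2 regulators Mir101a at 475 CPM in replicate 2 and 123 CPM in replicate 1, and Mir101b at 1170 and 426 CPM, with Mir195a, of the miR-15/16 seed family, at 2421 and 751 CPM. The lower ones were the p53 targets Mir34a at 288 CPM in replicate 2 and 613 CPM in replicate 1, and Mir34c at 282 and 719 CPM. Mir16-1, Mir15a and Mir15b had log2 ratios of -0.32, -0.35 and -0.56, and those of Mir16-2 and Mir497 were 0.05 and -0.002, so none of these 5 reached 2-fold. Mir34b and Mir449a were at 23.2 ± 8.89 and 81.6 ± 18.3 CPM (SD, n = 2), and Mir195b, Mir449b and Mir449c had 0 reads in both libraries, which allows up to 0.866 CPM in replicate 2 and 0.992 CPM in replicate 1 (3 reads). At 28142 CPM the mean level of Mir26b was above that of every gene on this list, the highest of which was Mir16-1 at 2833 CPM. These are levels of placed reads. Mir16-1 and Mir16-2 encode the same arm, miR-16-5p, so this order is not shown for the mature miRNAs.

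The seed of miR-26 pairs with the letters TACTTGA, or TACTTGAA when an A follows, and these were looked for on the sense strand in the longest annotated 3′ UTR of the host genes and of Ezh2. The sites are shown because the family is known to act on Ezh2 and, in zebrafish, on the host gene ctdsp2. Matching letters are in capitals within up to 10 bases of mm10 on each side.
Ezh2, chr6:47530276-47530303, minus strand: gaataaagaaTACTTGAActtgttgttg
Ctdsp2, chr10:126997556-126997583, plus strand: gtgttgctctTACTTGAtttgccaaatg

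The 402-base 3′ UTR of Ezh2 held TACTTGAA at position 248. Of 1797 3′ UTRs within 20% of its length, 1.28% held those 8 letters and 2.89% held the 7 letters TACTTGA. Ctdsp2 held TACTTGA at position 1080 of 3489 bases, as 23.1% of 1917 3′ UTRs of like length held it at least 1 time. In the 3′ UTRs of Ctdspl (3349 bases) and Ctdsp1 (1701 bases) TACTTGA was not found, and 22.1% and 10.9% of 3′ UTRs of like length held it. Over all 20996 genes with a 3′ UTR the share was 9.68% for TACTTGA and 4.19% for TACTTGAA. A match is a description of letters and not a measured site, and the messenger RNAs were not measured here.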

How the data were processed

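MicroRNA-seq of total RNA, with a labelled size range below 30 and no unit given, was analysed in 2 libraries of 1 group. Deposited values are raw read counts per miRNA gene, 1 file per library. The deposited notes name mm10 and GENCODE M21, and the sources used here name no aligner or counter. There are 3 count columns per file, read from the values as either strand, sense and opposite strand, and 4 summary rows that name no gene and stayed out of the totals. In replicate 2, 40.9% of reads were assigned in sense, 23.0% unmapped and 6.65% in no feature. The shares in replicate 1 were 42.2%, 23.5% and 6.79%.

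All 2202 identifiers matched GENCODE M21. Sense counts were divided by their library total (CPM). Shares have exact Clopper-Pearson intervals and ratios exact conditional intervals at 95%. Ratios relative to Mir26b take its counts as fixed. The ratio interval was tested on simulated counts with counting error alone (Poisson). The interval assumes this, so that test says nothing on PCR copies or the spread between libraries. No p-value was computed, since 1 group of 2 libraries gives no contrast.

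Members, lists and named genes were chosen with earlier results of these data known. Named genes are the members, their hosts, genes with the miR-26 seed, 5 genes of 1000 CPM or more nearest to Mir26b in ratio, 4 pairs with an identical arm of highest level, the G1 to S list and the cell markers. Ezh2 was added later. For pairs either arm counted, since hairpins do not show which arm is main. Alternatives were unstranded counts, other denominators, edgeR's TMM, DESeq2's size factors, other level and fold limits, other stretch lengths and each library alone. Scaling used edgeR 4.0.16 and DESeq2 1.42.0 in R 4.3.3, and the rest SciPy 1.17.1, NumPy 2.4.6 and pandas 2.3.3 in Python 3.11.15, with figures from matplotlib 3.10.9.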

Additional observations from a re-analysis of the deposited data

Results flagged for a closer look

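Multimapping reads enter no comparison. They made up 29.4% of reads in replicate 2 and 27.5% in replicate 1, and the design holds no control to compare them with. How many are miR-26a-5p was not analysed here. Groups of 2 libraries are too small to look for a library apart from the rest.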

How the results depend on the processing

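All 3 members were higher in replicate 2 under each scaling tried. The log2 ratio of Mir26b, 1.27, was 1.13 with unstranded counts, 1.22 per read in the file, 1.24 with TMM and 1.24 without Mir122 and Mir126a in the totals. The last setting and the file totals for ratios were chosen after seeing the data. Unstranded counts moved the median log2 ratio of the genes at 100 CPM or more by -0.15, and relative to that median the value of Mir26b was 1.28, against 1.27 with sense counts. With all reads in the file as denominator, the family share was 1.16%, Mir26b 11608 CPM and Mir26a-2 10.7 CPM, lower because that total is larger. Each library alone gave 1.65% to 3.98% for the family share, 16497 to 39787 CPM for Mir26b, 3.97 to 20.5 CPM for Mir26a-1 and 19.2 to 32.6 CPM for Mir26a-2. The 28 genes that differed 2-fold or more became 47 at 10 CPM, 8 at 1000 CPM, 149 with no level limit and 51 at 1.5-fold. The median of genes with an identical arm, 4.34 CPM, was 0.658 CPM with unstranded counts. In the either-strand column 794418 reads in replicate 2 and 902374 in replicate 1 were ambiguous, against 0 in the sense column. Mir129-2, a gene with an identical arm, had 153 sense reads but 1 either-strand read in replicate 2. The part of ambiguous reads in the lower median was not tested. Of 53 recomputed values, 41 stayed within the SD, interval or 1.5 times of the reported one. The 41 include the values of each library alone, which had to pass. In a pair of libraries each lies within the SD of their mean, so these values say nothing on stability. No paired analysis was possible because there is 1 group. Depth limits Mir26a-1 most, with 12 reads in replicate 1, where 1 read is 0.331 CPM.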
